A study of Mus musculus with 8 samples.

Results

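The collagen gene family was followed in single-nucleus RNA sequencing of mouse liver. Its members are the 44 genes, of 32285 in the deposited files, whose symbol has the form Col, a number, the letter a and a second number. They comprise 11 genes of fibrillar collagens, 8 of basement membrane collagens and 25 of other types. The livers came from 8 male DIAMOND mice, a 129A1/SvIm and C57BL/6J cross that develops fatty liver disease and liver tumours on a Western diet high in fat with sugar water. All 8 mice received the Western diet. The WD tumour group (n = 3) stayed on it for 48 weeks and had hepatocellular carcinoma. The RD tumour group (n = 2) was returned to standard chow after 36 weeks and had hepatocellular carcinoma, and the RD no tumour group (n = 3) had the same diet reversal with no detectable carcinoma. No mouse was kept on chow throughout, and the labels do not say whether tumour or surrounding liver was taken from the tumour-bearing mice. Age was not used, because the labels end the study at 48 weeks of age while the series design has feeding begin at 2 months and last 48 weeks. Each mouse is 1 library, and comparisons were made over mice.

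Collagens are secreted or membrane-bound proteins built of chains wound into a triple helix, and the genes encode single chains. Fibrillar collagens form the banded fibres of scar tissue, network-forming type IV collagen carries the basement membrane, and beaded-filament, fibril-associated (FACIT) and transmembrane collagens tie cells and fibres together. In injured liver, hepatic stellate cells are the best-known source of fibrillar collagen, and portal fibroblasts, endothelial cells and bile duct cells also make matrix. Hepatocytes make type XVIII collagen, whose cleaved end is endostatin.

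The measured quantity is the UMI (unique molecular identifier), 1 per captured RNA molecule. After barcodes with under 300 detected genes were left out, 79446 of 80575 barcodes remained and are called nuclei here. They held 17948627 to 34363108 UMIs per mouse, with medians of 1120 to 2656 UMIs per nucleus. Levels are a gene's UMIs per 1000000 UMIs of the same nuclei (CPM) and are not divided by gene length, so levels of different genes are not compared. Nuclei were assigned to classes, here called gates, by the number of marker genes detected. The stellate gate held 5058 nuclei, the endothelial gate 11693, the fibroblast gate 763, the cholangiocyte (bile duct) gate 672, the macrophage gate 16788 and the hepatocyte gate 38623. No doublet caller was run, and 3510 nuclei with tied marker counts were left out of all gates. Pairs of libraries shared 8 to 65 barcodes, at most 0.676% of the smaller library.

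The library labelled RD tumour 1 stood apart. It held 20000 barcodes, all with at least 300 genes, against 6049 to 10868 barcodes in the other 7 mice. Whether all of them are nuclei cannot be settled from the deposited counts. Marker counts were tied in 8.48% of its nuclei, against 1.70 to 4.94% elsewhere. Only 1.12% of its nuclei fell in the stellate gate, against 4.58 to 11.5% in the other 7 mice. In the endothelial gate 51.6% of its nuclei sat at the minimum of 2 markers, against 13.7 to 28.1% elsewhere. In stellate-gated nuclei the 10 stellate markers summed to 1702 CPM in RD tumour 1 and to 4623 to 7746 CPM in the other mice. Of the stellate-gated nuclei of RD tumour 1, 68.4% sat at the minimum of 2 markers, against 12.2 to 26.5% elsewhere. It had 10 cholangiocyte-gated nuclei, under the minimum of 20, so the RD tumour group has no cholangiocyte comparison. Hepatocyte RNA was present in every gate of every mouse: the 10 hepatocyte markers summed to 19075 to 38012 CPM in stellate-gated and to 24334 to 43004 CPM in hepatocyte-gated nuclei. Values in a gate therefore hold a share of RNA from other cells. The part of these technical differences in the results below was not tested, and fold changes against or of the RD tumour group are also given without RD tumour 1 where that moved them by over 1.5 times.

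The libraries held 164307 collagen UMIs, and 33 of the 44 members had at least 100. Col18a1 (ENSMUSG00000001435, chr10:77052178-77166548, minus strand, GRCm38), the type XVIII collagen gene, gave 87999 of them, or 53.6%, as molecules counted and not per length. Of all UMIs of all genes, the hepatocyte gate held 43.4%, the macrophage gate 22.0%, the endothelial gate 17.6%, the stellate gate 5.88%, the fibroblast gate 1.67% and the cholangiocyte gate 1.02%. Against these shares, 54.5% of Col18a1 UMIs came from hepatocyte-gated nuclei. The type XXVII gene Col27a1 (47.9%) and the type V chain gene Col5a3 (52.9%) are both fibrillar by family. Their shares in that gate, and that of the short-chain network gene Col8a1 (51.5%), lay between its 43.4% of all UMIs and the 54.5% of Col18a1. Pooled over the mice, the stellate gate supplied 26.2% of fibrillar, 6.02% of basement membrane (close to its 5.88% of all UMIs) and 25.9% of other collagen UMIs. It supplied 76.6% of the UMIs of Col24a1, a minor fibrillar collagen, 57.8% of Col5a1, 52.1% of Col14a1 and 49.1% of Col16a1 (both FACIT collagens), 42.9% of Col3a1 and 40.1% of Col5a2. The 3 chain genes of type VI collagen, which forms beaded filaments around cells, stood at 39.7% for Col6a1, 36.3% for Col6a2 and 41.0% for Col6a3. Col13a1, a transmembrane collagen, was endothelial: 67.4% of its UMIs lay in that gate. Cholangiocyte-gated nuclei, 672 in all, held 10.7% of the UMIs of Col4a5 and 14.4% of those of Col4a6, which encode type IV chains of smooth muscle and some epithelial basement membranes.

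**Figure D1:**
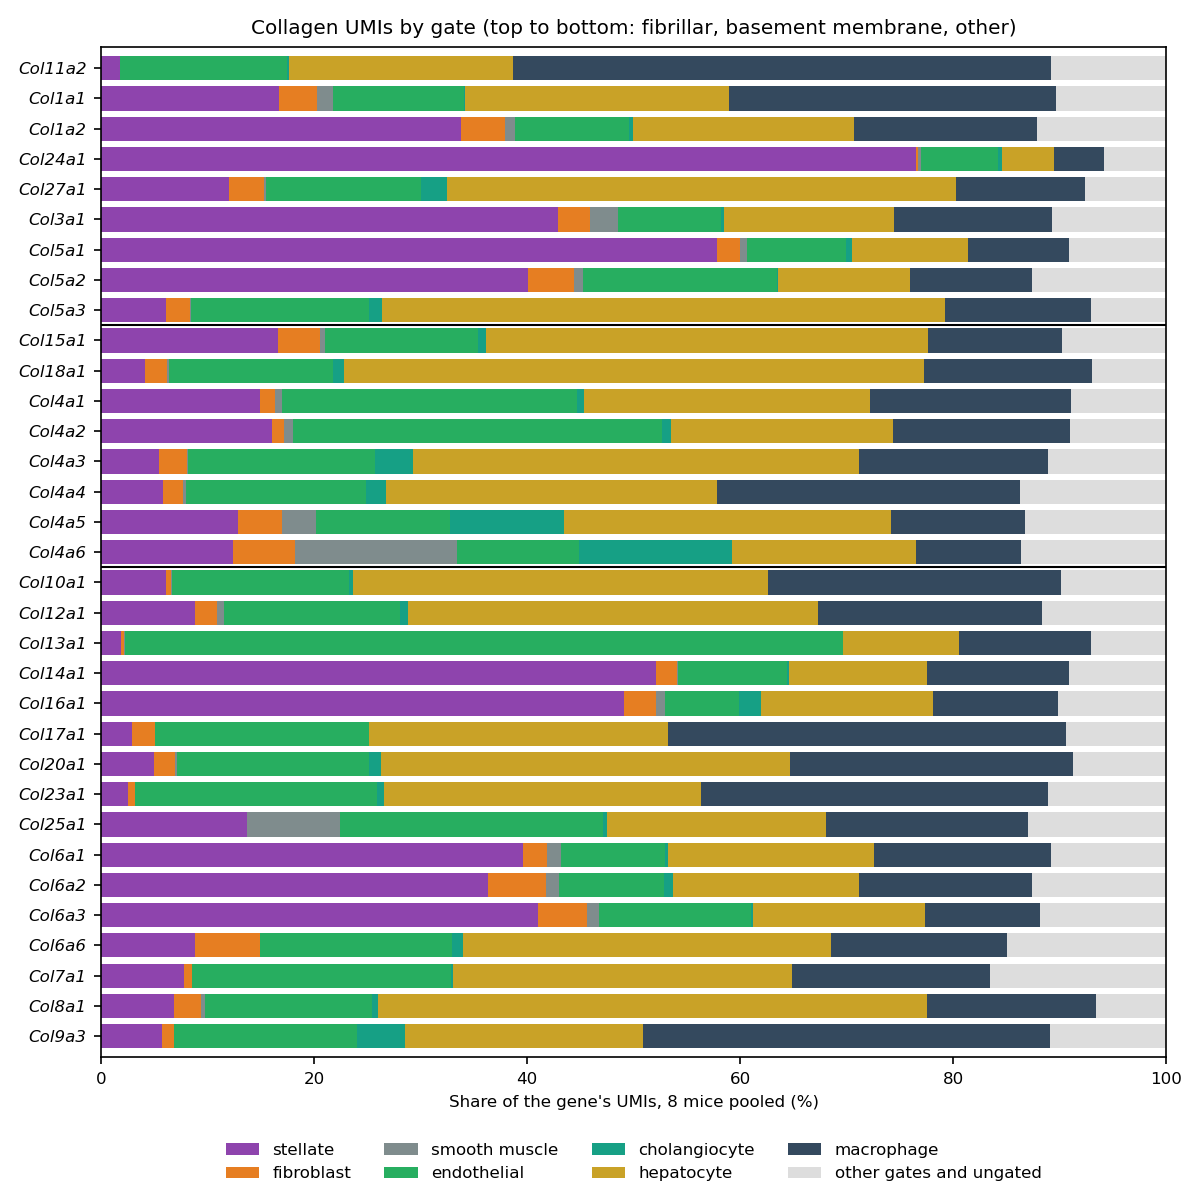
Horizontal bars give, for each of the 33 collagen genes with at least 100 UMIs, the percentage of the gene's UMIs (x axis, 8 mice pooled) that came from each gate; black lines part fibrillar, basement membrane and other types. The stellate segment reaches 76.6% for Col24a1, the endothelial segment 67.4% for Col13a1 and the hepatocyte segment 54.5% for Col18a1.

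Set against hepatocyte-gated nuclei of the same mouse, the stellate gate had higher levels of a subset of members. In the 7 mice other than RD tumour 1, the median ratio of stellate-gate to hepatocyte-gate CPM was at least 4 for 14 of 33 members, and for 11 of them it was at least 4 in every mouse whose hepatocyte gate held more than 3 UMIs of the gene. Median ratios were 107 for Col24a1, 51.1 for Col5a2, 44.2 for Col5a1, 37.7 for Col3a1, 30.7 for Col14a1, 26.8 for Col6a3 and 0.518 for Col18a1. The Col24a1 median rests on WD tumour 1 (59.5) and RD no tumour 2 (155) alone. In the rest of these 7 mice the hepatocyte gate held no more than 3 of its UMIs. In RD tumour 1, 1 of 32 members with a value, Col12a1, reached 4, and its ratio for Col5a1 was 0.986. Its ratios were 3.93 for Col6a3, 2.50 for Col5a2, 2.26 for Col14a1, 2.19 for Col3a1 and 0 for Col24a1. For these genes and Col5a1 each was below every value of the other 7 mice, so these members marked stellate-gated nuclei less strongly in that library.

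Summed over the family by type, fibrillar collagens were higher in the WD tumour group, and the type XXVII gene Col27a1 carried part of that difference. Whole-library fibrillar sums were 210, 158 and 152 CPM in the WD tumour mice, 79.0 and 121 CPM in the RD tumour mice and 90.2, 112 and 67.1 CPM in the RD no tumour mice. The WD tumour mice lay above all mice of both reversal groups, which overlapped each other. Without Col27a1, an alternative chosen after its values were seen, the sums were 94.2, 132 and 92.0 CPM in WD tumour mice, 76.2 and 103 CPM in RD tumour mice and 75.0, 66.0 and 47.3 CPM in RD no tumour mice, so that WD tumour still lay above RD no tumour and overlapped RD tumour. The median share of mitochondrial UMIs per nucleus was 7.91% and 7.51% in WD tumour 1 and 3 and 1.30 to 3.28% in the other 6 mice, and its part in the result was not tested. In stellate-gated nuclei the fibrillar sums were 675, 1076 and 594 CPM in WD tumour mice, 158 and 319 CPM in RD tumour mice and 581, 456 and 313 CPM in RD no tumour mice. WD tumour again lay above both reversal groups, its lowest mouse (594 CPM) close to the highest RD no tumour mouse (581 CPM). Without Col27a1 they overlapped, at 482 to 993 CPM and 289 to 528 CPM. Endothelial-gated fibrillar sums did not overlap between WD tumour (102 to 159 CPM) and RD no tumour (56.4 to 66.4 CPM). The same held in hepatocyte-gated (99.5 to 173 against 47.8 to 93.7 CPM), macrophage-gated (86.6 to 145 against 45.5 to 58.4 CPM), cholangiocyte-gated (151 to 189 against 27.4 to 90.4 CPM), T and NK lymphocyte-gated (66.4 to 138 against 27.1 to 44.8 CPM) and B lymphocyte-gated nuclei (60.3 to 170 against 24.4 to 32.7 CPM). It also held in fibroblast-gated nuclei (296 to 416 against 90.0 to 231 CPM), while dendritic, mesothelial and smooth muscle gates overlapped. Some of these sums rest on few molecules. In RD no tumour mice the fibrillar UMIs numbered 7, 4 and 5 in the B, 16, 13 and 9 in the T and NK and 6, 14 and 28 in the cholangiocyte gate. The separation was thus not particular to gates of matrix-producing cells. Without Col27a1 it stayed in the endothelial gate (50.4 to 101 against 35.5 to 46.3 CPM), the hepatocyte gate (45.5 to 74.7 against 32.9 to 39.6 CPM) and the macrophage gate (48.1 to 68.1 against 29.0 to 34 CPM). Sums without Col27a1 were not computed for the fibroblast, cholangiocyte and lymphocyte gates. Basement membrane sums overlapped between WD tumour (565 to 670 CPM) and RD no tumour (441 to 707 CPM) in whole libraries. The other types also overlapped, at 105 to 181 CPM and 92.1 to 171 CPM. These sums carry no test. In whole libraries, fewer cells of a type and less RNA per cell cannot be told apart. The stellate gate held 6.76 ± 2.09% (SD, n = 3) of WD tumour nuclei and 8.25 ± 2.77% (SD, n = 3) of RD no tumour nuclei, a difference smaller than the spread.

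**Figure D2:**
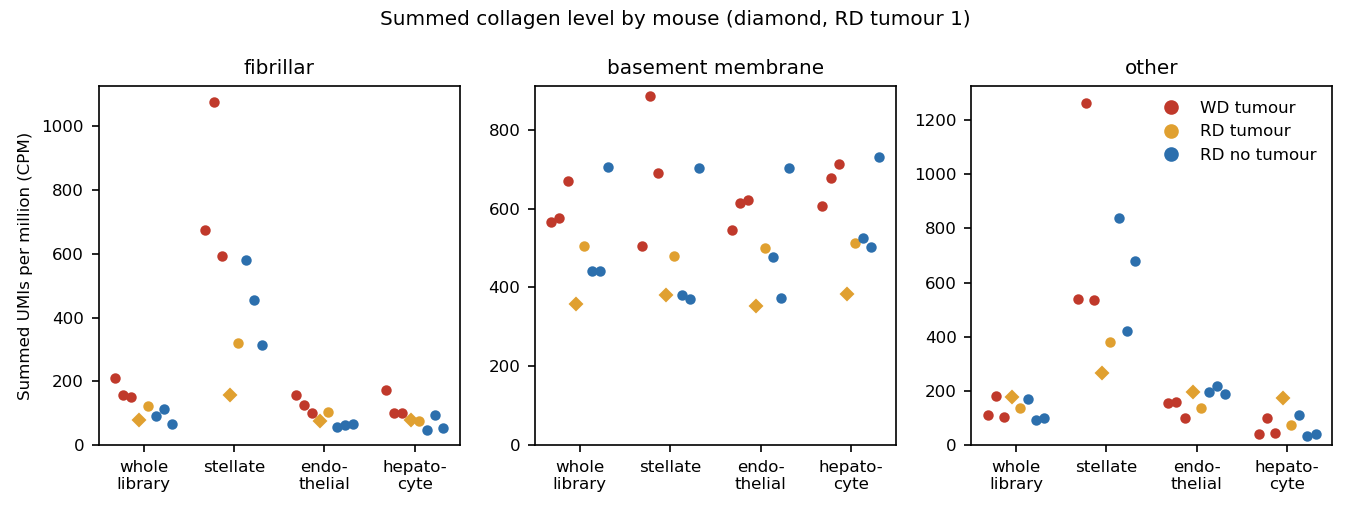
Each point is the summed CPM (y axis) of fibrillar, basement membrane or other collagens in 1 mouse, in the whole library and in 3 gates (x axis), coloured by group. In whole libraries the 3 WD tumour points for fibrillar collagens (152 to 210 CPM) lie above all others (67.1 to 121 CPM), whereas basement membrane points overlap.

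Single genes were tested with edgeR's quasi-likelihood test on UMIs summed per mouse, adjusted over all genes by the Benjamini-Hochberg method, in 13 comparisons. No collagen gene passed an adjusted p of 0.05 in any of them (lowest adjusted p of a member 0.473). The share of all genes that passed was 0% in 12 of the comparisons and 0.013% in cholangiocyte-gated nuclei, so the differences below are values with their errors and not calls. In whole libraries, 7 of 35 tested members had an unadjusted p under 0.05 between WD tumour and RD no tumour, all higher in WD tumour, where 2.75% of all tested genes did. Leaving out 1 mouse lowered the 7 to 2 (without RD no tumour 2), 3 (without RD no tumour 3) or 4 (without any one of the WD tumour mice). For these and later fits with a mouse left out, the share of all genes is not given unless stated. DESeq2 called 0 members there, against 0.189% of all genes it tested, and gave 8 an unadjusted p under 0.05, against 3.65%. It called a member in 2 of the 13 comparisons, named below, and 0 in each of the other 11. The median log2 fold change was 0.35 over the members and -0.01 over all genes. Of the 30 members with a mean of at least 1 CPM, 10 had every WD tumour mouse above every RD no tumour mouse, and 0 had the reverse; over all genes the shares were 6.67% and 3.73%. For RD tumour against RD no tumour 2 members lay wholly above and 0 below, with shares of 11.2% and 5.37% over all genes. Comparing the tumour-bearing groups, 4 members lay wholly above in WD tumour and 2 below, with shares of 9.89% and 11.4%. Between RD tumour and RD no tumour 4 of 35 members had an unadjusted p under 0.05, all higher in RD tumour, against 6.7% of all genes. For WD tumour against RD tumour there were 7 of 35, 4 of them higher in WD tumour, against 7.56%, and 3 of 36 without RD tumour 1. The RD no tumour mice serve as controls in the first 2 of these comparisons, which are therefore not independent.

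In whole libraries, chains of types I and V were among the fibrillar genes whose levels in WD tumour exceeded those of RD no tumour. These 2 groups differ in diet and in tumour, which this comparison cannot separate. Col1a1, one of the chain genes of type I collagen, the main collagen of scar, stood at 3.45, 7.51 and 4.19 CPM in WD tumour mice, 10.9 and 1.73 CPM in RD tumour mice and 1.92, 0.706 and 0.373 CPM in RD no tumour mice. The WD tumour mice all exceeded the RD no tumour mice, and the RD tumour mice lay on either side of the WD tumour range. Its log2 fold change was 2.31 ± 0.83 (SE, WD tumour against RD no tumour, edgeR unadjusted p = 0.0241). Its counterpart Col1a2 differed less clearly, at 10.9, 14.1 and 12.0 CPM in WD tumour mice and 9.33, 5.83 and 1.74 CPM in RD no tumour mice, groups that did not overlap. Col5a2 had a log2 fold change of 1.01 ± 0.38 and Col5a1 of 0.94 ± 0.38 in the same comparison. Col3a1, the type III chain that forms fine reticular fibres, overlapped between the groups (16.3 to 39.4 CPM against 4.19 to 17.9 CPM).

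Of the type VI genes, Col6a3 showed the same order in whole libraries. Col6a3 was counted at 14.0, 11.2 and 14.6 CPM in WD tumour mice, 4.66 and 9.18 CPM in RD tumour mice and 6.79, 4.63 and 3.51 CPM in RD no tumour mice. Every WD tumour mouse was above every other mouse, and the reversal groups overlapped. Relative to RD no tumour its log2 fold change was 1.39 ± 0.36 (edgeR unadjusted p = 0.00482), and relative to RD tumour 0.98 ± 0.40, or 0.61 without RD tumour 1 and 1.496 without RD tumour 2. Col6a2 was at 3.90, 8.04 and 6.22 CPM in WD tumour mice, 4.69 and 2.13 CPM in RD tumour mice and 3.64, 2.47 and 1.12 CPM in RD no tumour mice, a log2 fold change of 1.30 ± 0.53 between the first and last group, which did not overlap. Col6a1 differed less, by 0.71 ± 0.39, and Col6a6 by -0.011 ± 0.61 in that comparison. Col6a5, with 68 UMIs in all, had 24, 17 and 11 UMIs in the WD tumour mice, 2 and 4 in RD tumour and 5, 3 and 2 in RD no tumour. Its log2 fold changes were 2.73 ± 0.66 against RD no tumour and 3.05 ± 0.78 against RD tumour, on few molecules. Among the chains of type IV collagen, Col4a5 stood at 15.5, 10.6 and 15.2 CPM in WD tumour mice against 4.70, 3.35 and 7.67 CPM in RD no tumour mice, with RD tumour at 2.56 and 11 CPM. It differed by 1.34 ± 0.56 on the log2 scale from RD no tumour.

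In stellate-gated nuclei most members had higher fitted levels in WD tumour. Of 24 tested, 19 had a positive log2 fold change against RD no tumour, with a median of 0.80 over the members and -0.01 over all genes, and 7 had an unadjusted p under 0.05, all higher in WD tumour, where 2.39% of all genes did. Of the 30 members with a mean of at least 1 CPM in the gate, 10 had every WD tumour mouse above every RD no tumour mouse and 0 the reverse, with 7.21% and 3.83% over all genes. Positive fold changes were found for 7 of 8 fibrillar, 7 of 8 basement membrane and 5 of 8 other genes. Without RD tumour 1 in the fit, 8 of 29 members had an unadjusted p under 0.05, all higher, against 4.39%. Leaving out other mice lowered the 7 to 2 (without RD no tumour 2), 3 (without RD no tumour 3) and 4 (without WD tumour 3). The fold changes and errors of all 24 are in the plot of stellate-gated fold changes. Markers of other cell types were also counted in these nuclei. The 10 mesothelial markers summed to 70.7 to 75.9 CPM in stellate-gated nuclei of WD tumour mice, 18.7 to 67.8 CPM in RD no tumour mice and 19.8 to 45.9 CPM in RD tumour mice. These sums did not overlap between WD tumour and the others. Only for 4 of the 10 markers did the WD tumour mean exceed that of RD no tumour, 1 without overlap, and 1 of the 10 was at 0 in all mice. The 10 fibroblast markers summed to 461 to 782 CPM in stellate-gated nuclei of WD tumour mice, 228 to 733 CPM in RD no tumour mice and 158 to 296 CPM in RD tumour mice. For 6 of the 10 the WD tumour mean exceeded that of RD no tumour, 2 without overlap, and Mfap5 was at 0 in all mice. Among these 2 was Lama2, a laminin chain gene, at 315, 327 and 282 CPM in WD tumour mice, 137, 100 and 49.0 CPM in RD no tumour mice and 37.1 and 75.1 CPM in RD tumour mice. The part of these cell types in the result was not tested.

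Col15a1, which encodes a collagen of the zone between basement membrane and fibres, showed the largest of these stellate-gate fold changes. It was at 24.3, 40.7 and 15.9 CPM in WD tumour mice, 0 and 0.356 CPM in RD tumour mice and 4.13, 0 and 3.89 CPM in RD no tumour mice, from 119 UMIs in the gate. WD tumour lay above both reversal groups, which overlapped each other. On the log2 scale WD tumour differed by 3.23 ± 0.76 from RD no tumour (edgeR unadjusted p = 0.00259, adjusted p = 0.999) and by 6.16 ± 1.28 from RD tumour (unadjusted p = 0.00119, adjusted p = 0.473). Without RD tumour 1 the latter was 5.98. With 0 and 1 UMIs in the RD tumour mice this fitted value depends on the prior count. Whole libraries did not show this order against RD no tumour: Col15a1 stood at 4.35, 4.84 and 5.41 CPM in WD tumour mice, 1.11 and 0.882 CPM in RD tumour mice and 3.77, 0.397 and 6.71 CPM in RD no tumour mice, with a log2 fold change of 2.30 ± 0.99 between WD tumour and RD tumour. Hepatocyte-gated nuclei held 41.6% of its UMIs, and there RD no tumour 3 (7.44 CPM) and RD no tumour 1 (4.86 CPM) exceeded the WD tumour mice (1.01, 3.27 and 3.42 CPM).

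The type VI chains were the second stellate group. Col6a3 was at 90.0, 99.7 and 74.4 CPM in WD tumour mice, 17.3 and 34.9 CPM in RD tumour mice and 50.04, 35.8 and 49.8 CPM in RD no tumour mice, 3 groups without overlap. Its log2 fold changes were 0.90 ± 0.30 between WD tumour and RD no tumour, -0.83 ± 0.35 between the RD groups and 1.73 ± 0.36 between the tumour-bearing groups. Without RD tumour 1 the last 2 were -0.49 and 1.37, and the second was -1.56 without RD tumour 2. Col6a1 was at 33.7, 66.8 and 58.0 CPM in WD tumour mice, 14.8 and 17.4 CPM in RD tumour mice and 42.8, 42.5 and 33.5 CPM in RD no tumour mice. Both RD tumour mice lay below all others, and WD tumour and RD no tumour overlapped. Col6a1 differed by -1.39 ± 0.37 between RD tumour and RD no tumour (edgeR unadjusted p = 0.00534) and by -1.30 without RD tumour 1. Col6a2 was at 23.5, 77.5 and 35.2 CPM in WD tumour mice, 7.42 and 6.41 CPM in RD tumour mice and 26.3, 20.3 and 9.34 CPM in RD no tumour mice. Its log2 fold changes were 1.18 ± 0.50, -1.61 ± 0.68 and 2.80 ± 0.69 in the same 3 comparisons. The first was 0.59 when WD tumour 2 was left out. Comparing WD tumour with RD tumour, DESeq2 called these 3 genes and no other member, against 0.566% of all genes.

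The upstream sequences of these genes are shown because these 4 genes are described at most length in the stellate gate. Each is the longest stretch without an annotated exon (GENCODE M21) within the 250 bases upstream of a RefSeq start site, build GRCm38.p6. They run 5′ to 3′ on the gene's strand. For Col6a1 the RefSeq start site is at 76726044 and the printed stretch stops at 76726169, so the bases next to that start site are not shown. Capitals mark a CCAAT box (CCAAT or ATTGG), a GC box (GGGCGG or CCGCCC) or a TATA box (TATAAA or TTTATA).
Col15a1, chr4:47207762-47208011, plus strand: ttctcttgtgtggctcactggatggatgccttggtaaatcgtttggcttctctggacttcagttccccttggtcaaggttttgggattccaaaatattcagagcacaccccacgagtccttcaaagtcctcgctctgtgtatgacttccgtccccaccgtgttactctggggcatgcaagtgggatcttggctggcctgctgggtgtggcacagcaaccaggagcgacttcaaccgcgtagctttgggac
Col6a1, chr10:76726169-76726294, minus strand: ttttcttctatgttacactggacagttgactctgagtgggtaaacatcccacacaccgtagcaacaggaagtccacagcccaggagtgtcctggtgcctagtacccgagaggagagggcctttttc
Col6a2, chr10:76623631-76623880, minus strand: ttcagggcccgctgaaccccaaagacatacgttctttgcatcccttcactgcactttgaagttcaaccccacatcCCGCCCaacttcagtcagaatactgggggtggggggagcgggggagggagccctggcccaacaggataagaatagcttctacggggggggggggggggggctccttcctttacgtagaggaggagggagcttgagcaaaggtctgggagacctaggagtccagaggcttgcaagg
Col6a3, chr1:90843972-90844221, minus strand: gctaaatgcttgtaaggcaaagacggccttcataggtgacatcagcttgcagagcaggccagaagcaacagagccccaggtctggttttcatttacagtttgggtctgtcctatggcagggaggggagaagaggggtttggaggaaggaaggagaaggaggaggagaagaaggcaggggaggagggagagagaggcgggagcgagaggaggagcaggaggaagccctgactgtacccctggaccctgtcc

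Of these 4 stretches only that of Col6a2 held one of the 3 motifs, a single GC box. Over the full 250 bases upstream, RefSeq windows were matched for 35 of the 44 members (38 windows). The GC box was in 22 of the 38 windows, the CCAAT box in 13 and the TATA box in 5, the last including Col3a1 and Col13a1. Among all 32851 windows, 32.7% held a GC box, 33.8% a CCAAT box and 12.4% a TATA box. A match describes letters and not a bound site.

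**Figure D3:**
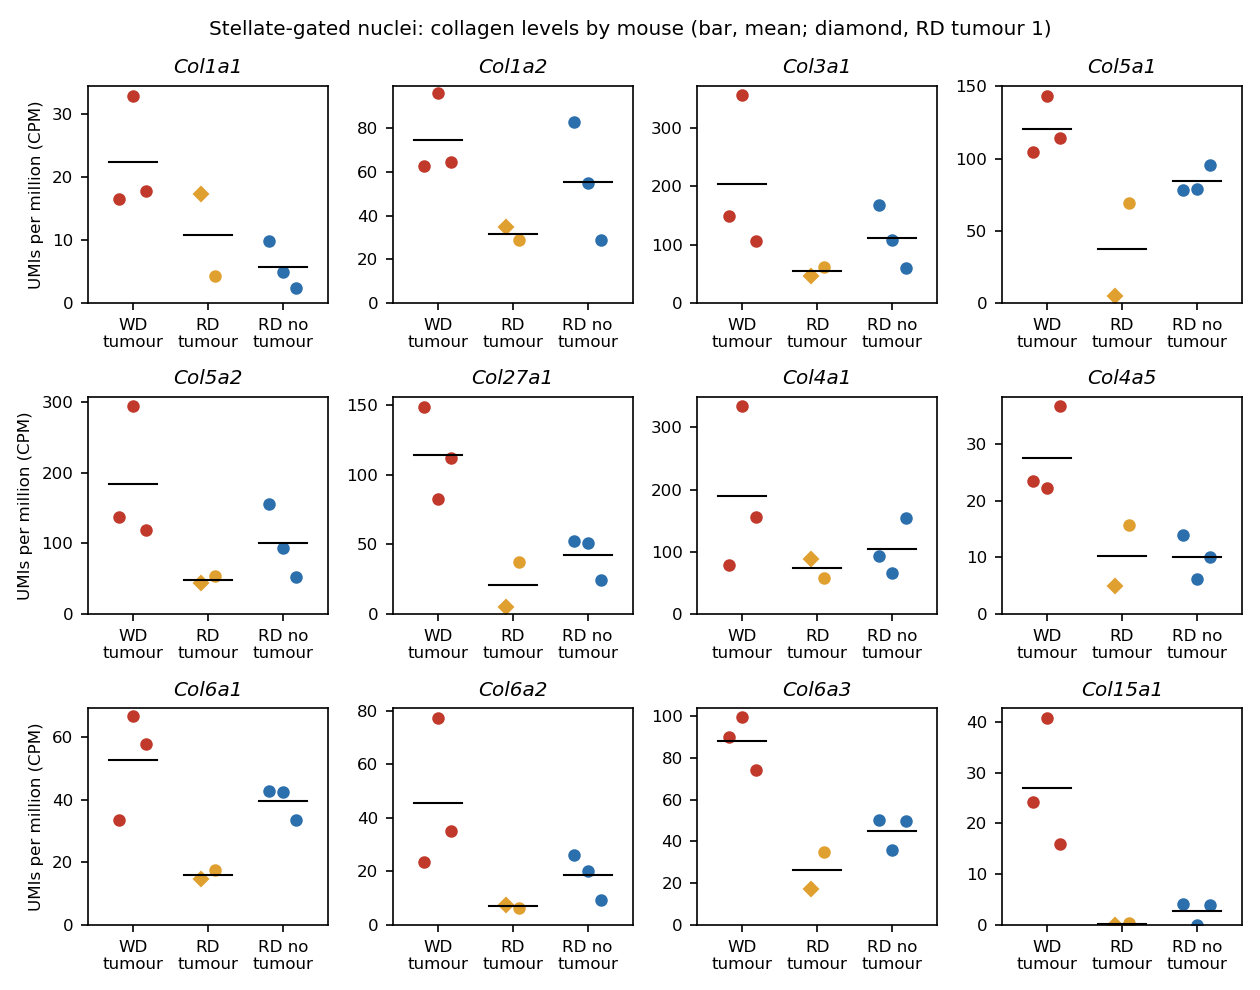
Each panel gives the CPM of 1 collagen gene (y axis) in stellate-gated nuclei of the 3 WD tumour, 2 RD tumour and 3 RD no tumour mice (x axis), with a bar at the group mean. Col15a1 and Col6a3 separate WD tumour from both reversal groups, and the 2 RD tumour points of Col6a1 (14.8 and 17.4 CPM) lie below all others.

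Of the 8 fibrillar genes tested in stellate-gated nuclei, 5 had an unadjusted p under 0.05 between WD tumour and RD tumour and 2 between WD tumour and RD no tumour, all higher in WD tumour; the WD tumour mice serve in both. Col3a1 was at 149, 356 and 106 CPM in WD tumour mice, 47.0 and 61.9 CPM in RD tumour mice and 168, 107 and 60.7 CPM in RD no tumour mice. WD tumour lay above RD tumour and overlapped RD no tumour, in which 1 mouse fell below RD tumour 2. WD tumour differed from RD tumour by 1.95 ± 0.62 on the log2 scale, by 1.75 without RD tumour 1 and by 1.29 without WD tumour 2. Col5a2 had 1.96 ± 0.57, Col1a2 1.32 ± 0.46 and Col5a1 1.59 ± 0.69 in that comparison. For Col5a1 the fit gave 4.71 without RD tumour 2 but 0.84 without RD tumour 1, whose value of 4.95 CPM was far below that of RD tumour 2 (69.4 CPM). Col1a1 was at 16.4, 32.9 and 17.9 CPM in WD tumour mice, 17.3 and 4.27 CPM in RD tumour mice and 9.80, 4.93 and 2.34 CPM in RD no tumour mice. WD tumour differed from RD no tumour by 1.84 ± 0.62 on the log2 scale (edgeR unadjusted p = 0.017). Col24a1, the member most enriched in the stellate gate, overlapped between WD tumour (26.3 to 39.9 CPM) and RD no tumour (26.3 to 51.2 CPM).

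Of basement membrane genes in stellate-gated nuclei, Col4a5 was at 23.5, 22.3 and 36.7 CPM in WD tumour mice, 4.95 and 15.7 CPM in RD tumour mice and 13.9, 6.16 and 10.1 CPM in RD no tumour mice. WD tumour did not overlap either reversal group. The log2 fold change of WD tumour was 1.39 ± 0.45 relative to RD no tumour and 1.27 ± 0.52 relative to RD tumour, the latter 0.87 without RD tumour 1 and 2.596 without RD tumour 2. Col4a3, a chain found in few basement membranes, had 1.45 ± 0.51 against RD no tumour from 95 UMIs in the gate. Col4a1, one of the ubiquitous type IV chains, had 1.47 ± 0.63 against RD tumour and 0.79 without WD tumour 2, whose level of 335 CPM was the highest of all mice. Col14a1, which binds fibril surfaces, had 1.65 ± 0.72 against RD tumour, 1.02 without RD tumour 1, 2.88 without RD tumour 2 and 0.96 without WD tumour 2. In all, 12 of 24 members had an unadjusted p under 0.05 between WD tumour and RD tumour, each higher in WD tumour, against 9.45% of all genes, and 10 of 29 did without RD tumour 1, against 6.07%. The gate's own 10 stellate markers were lower in both RD tumour mice (1702 and 4623 CPM) than in the WD tumour mice (5100 to 6890 CPM), and its endothelial markers were higher (370 to 485 against 220 to 326 CPM), and their part in the result was not tested. Every WD tumour mouse was above every RD tumour mouse for 12 of 30 members and below for 1, with 12.1% and 13% over all genes. Between RD tumour and RD no tumour it was 4 of 24, with the 3 type VI chains lower and Col4a4 higher in RD tumour, against 8.05%, and 4 of 29 without RD tumour 1, against 4.87%. Without RD no tumour 1 it was 1 of 24. In that comparison 2 of 30 members lay wholly above and 7 wholly below in RD tumour, with 14% and 9.22% over all genes. Col4a4 had 1.75 ± 0.70 there, 0.095 without RD tumour 1 and 2.69 without RD tumour 2. Over the members the median log2 fold change was 1.29 between WD tumour and RD tumour and -0.88 between the reversal groups.

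**Figure D4:**
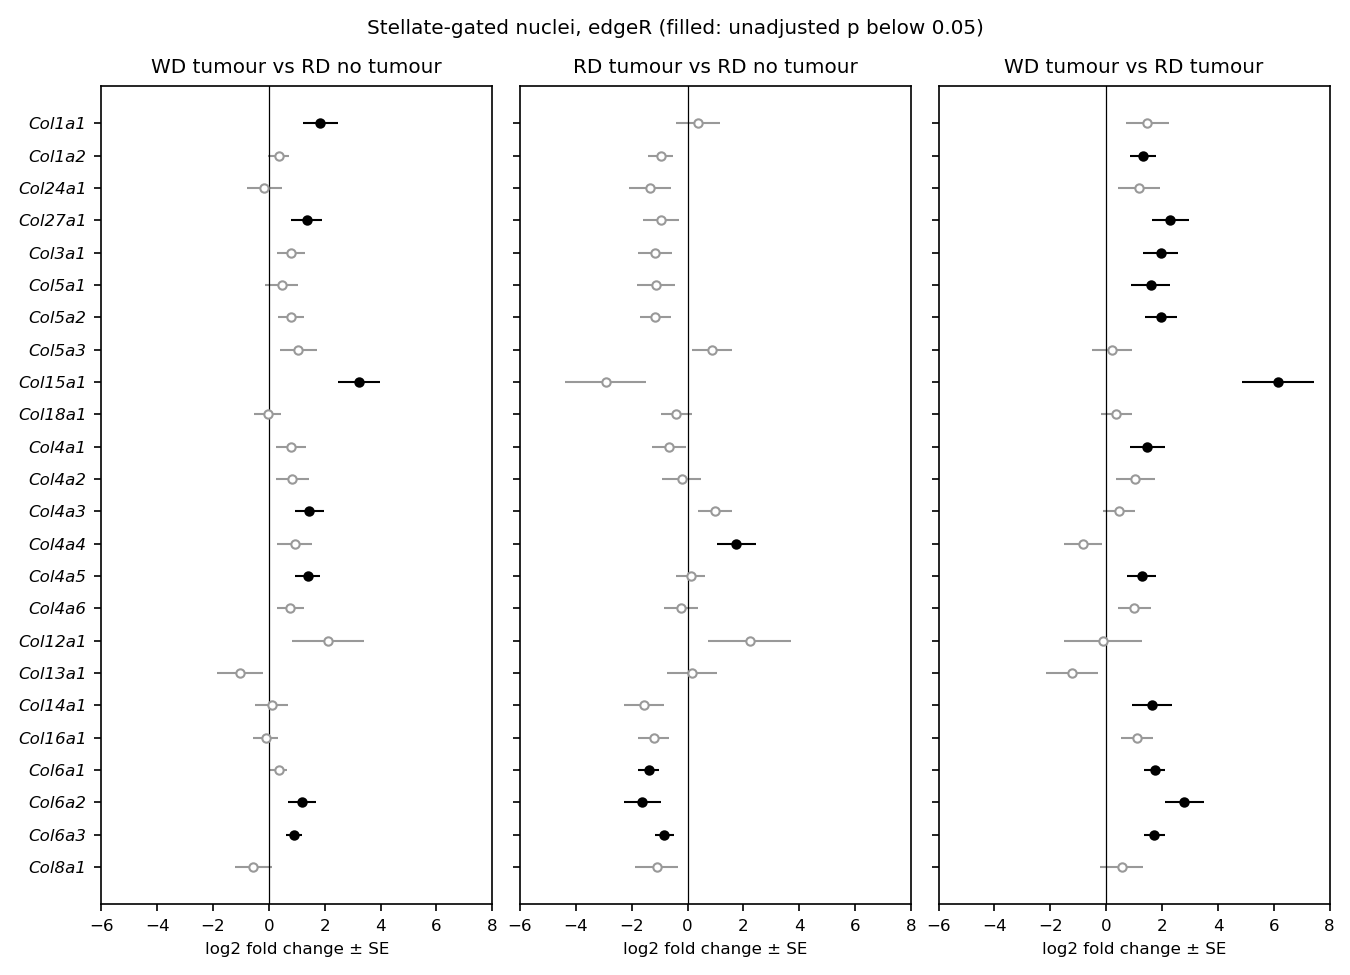
Points give the log2 fold change (x axis, edgeR) and bars 1 SE for the 24 collagen genes tested in stellate-gated nuclei, in 3 comparisons. Filled points have an unadjusted p under 0.05: 7 in WD tumour against RD no tumour, 4 in RD tumour against RD no tumour and 12 in WD tumour against RD tumour.

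In endothelial-gated nuclei Col13a1 was lower on average in both tumour-bearing groups than in RD no tumour. This gene (ENSMUSG00000058806, chr10:61838236-61979108, minus strand, GRCm38) was at 81.6, 50.3 and 46.4 CPM in WD tumour mice, 47.9 and 47.9 CPM in RD tumour mice and 73.3, 157 and 122 CPM in RD no tumour mice. RD tumour lay below RD no tumour, and WD tumour 1 overlapped RD no tumour 1. The log2 fold change was -1.03 ± 0.37 for WD tumour (edgeR unadjusted p = 0.025) and -1.34 ± 0.43 for RD tumour (unadjusted p = 0.0147) against the same RD no tumour mice. Without RD tumour 1 the latter was -1.41. Across the gate 5 of 27 members had an unadjusted p under 0.05 between WD tumour and RD no tumour, 3 higher and 2 lower in WD tumour, against 2% of all genes. Leaving out 1 mouse gave 3 to 9 members, for which the share of all genes is not given here. The endothelial markers summed to 3169 to 5011 CPM in WD tumour mice, 3159 to 5053 CPM in RD no tumour mice and 1839 to 2391 CPM in RD tumour mice.

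The other endothelial differences were in genes with fewer UMIs there. Col3a1 was at 10.2, 22.2 and 6.27 CPM in WD tumour mice, 18 and 7.13 CPM in RD tumour mice and 4.79, 3.87 and 2.49 CPM in RD no tumour mice, with every tumour-bearing mouse above every other. Its log2 fold changes against RD no tumour were 1.75 ± 0.59 and 1.76 ± 0.63. Without RD tumour 1 the second was 0.86, and without WD tumour 2 the first was 1.15. Stellate markers in the same nuclei summed to 229 to 363 CPM in WD tumour mice, 127 to 481 CPM in RD tumour mice and 201 to 390 CPM in RD no tumour mice. Col4a6 (1.52 ± 0.44) and Col6a3 (1.07 ± 0.43) were higher in WD tumour and Col8a1 (-2.14 ± 0.90) lower; the last was -0.99 without RD no tumour 1, which stood at 63.7 CPM. Col4a1 and Col4a2, the chains of vascular basement membrane, overlapped between WD tumour (54.7 to 153 and 45.9 to 101 CPM) and RD no tumour (52.9 to 114 and 31.3 to 84.0 CPM). Between RD tumour and RD no tumour, 5 of 27 members had an unadjusted p under 0.05, against 8.06%. Besides Col13a1 and Col3a1 these were Col1a2 (2.22 ± 0.68, and 0.89 without RD tumour 1), Col4a4 (2.19 ± 0.86, and -0.67 without it) and Col23a1 (2.90 ± 0.97, and -0.39 without it). In WD tumour against RD tumour 2 of 27 did, against 8.44%: Col27a1 (2.56 ± 0.78, and 1.92 without it) and Col4a4 (-2.67 ± 0.88, and 0.17 without it).

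Cholangiocyte-gated nuclei, 51.1 to 75.4% of which sat at the minimum of 2 markers in each mouse, had high levels of the paired genes Col4a5 and Col4a6. In the 7 mice other than RD tumour 1, the median ratio of cholangiocyte-gate to hepatocyte-gate CPM was 14.3 for Col4a5 and 35.3 for Col4a6. Col4a6 was at 91.4, 43.5 and 55.2 CPM in WD tumour mice, 3.78 CPM in RD tumour 2 and 32, 84.0 and 43.5 CPM in RD no tumour mice. WD tumour and RD no tumour overlapped, and RD tumour 2 was low on 135 nuclei. Smooth muscle-gated nuclei, 134 in all, held 115 Col4a6 UMIs, 94 of them in RD tumour 2. That gate took 0.906% of the nuclei of RD tumour 2 and 0.02 to 0.164% in the other mice. Of 9 members tested between WD tumour and RD no tumour, 1 (Col27a1, log2 fold change 1.41 ± 0.54, or 0.91 without RD no tumour 1) had an unadjusted p under 0.05, against 7.33% of all genes.

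The fibroblast gate was less well defined, with 60.3 to 94.1% of its nuclei at the minimum of 2 markers in each mouse. One of its 10 markers, Scara5, was detected in 40.0 to 89.1% of its nuclei and stood at 25.7 to 290 CPM in hepatocyte-gated nuclei. Without Scara5, which was dropped after its values were seen, the gate held 27, 37 and 61 nuclei in the WD tumour mice, 31 and 44 in the RD tumour mice and 47, 19 and 15 in RD no tumour, too few for a comparison with the last group. With Scara5, 4 of 14 members had an unadjusted p under 0.05 between WD tumour and RD no tumour, all higher in WD tumour, against 3.5% of all genes. Leaving out 1 mouse gave from 0 (without RD no tumour 3 or without WD tumour 3) to 10 (without RD no tumour 1). As the shares of all genes in those fits are not given here, these counts cannot be read as particular to collagens. They were Col1a2 (2.89 ± 1.03), Col4a2 (2.06 ± 0.83), Col4a5 (1.60 ± 0.70, or 0.97 without RD no tumour 2) and Col27a1 (1.32 ± 0.57). Col1a2 was at 11.7, 45.5 and 84.0 CPM in WD tumour mice and 17.6, 4.02 and 0 CPM in RD no tumour mice, from 84 UMIs in all. The groups overlapped in RD no tumour 1, whose fibroblast gate also had 56.0% of nuclei with Scara5 against 89.1 and 86.5% in the other 2 mice of its group. Between the RD groups 0 of 14 members had such a p, against 6.48%, and 1 did by DESeq2, against 6.5%. In WD tumour against RD tumour 1 of 14 did, against 7.1%: Col27a1, at 2.40 ± 0.77, 1.92 without RD tumour 1, 8.58 without RD tumour 2 and 1.63 without Scara5. With no filter on low counts, edgeR called 2 of 37 members in the fibroblast gate between WD tumour and RD no tumour (Col1a2 and Col6a3, against 0.47% of all genes). Col1a2 was the only member called between the RD groups (against 1.35%), and Col27a1 the only one between WD tumour and RD tumour (against 1.1%).

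Some members with more of their UMIs in the hepatocyte gate than in any other gate differed widely between mice of a group. Col18a1 stood at 474, 416 and 559 CPM in whole libraries of WD tumour, 164 and 428 CPM in RD tumour mice and 342, 397 and 625 CPM in RD no tumour mice. All groups overlapped, and RD tumour 1 was lowest. Col27a1 was at 116, 26.5 and 60.1 CPM in WD tumour mice, 2.85 and 18 CPM in RD tumour mice and 15.2, 46.0 and 19.7 CPM in RD no tumour mice. WD tumour lay above RD tumour (log2 fold change 2.78 ± 0.98, 2.01 without RD tumour 1 and 4.57 without RD tumour 2) and overlapped RD no tumour. In stellate-gated nuclei the WD tumour mice (149, 82.3 and 112 CPM) were above the RD no tumour mice (52.6, 51.2 and 24.1 CPM) with a log2 fold change of 1.36 ± 0.55, and 2.30 ± 0.67 against RD tumour, the latter 1.67 without RD tumour 1 and 4.64 without RD tumour 2. Hepatocyte-gated nuclei overlapped, at 123, 24.8 and 54.7 CPM against 11.1, 54.1 and 19.2 CPM. In the 7 mice other than RD tumour 1, the ratio of stellate-gate to hepatocyte-gate CPM of Col27a1 was 0.945 to 4.73, with a median of 2.05. Col8a1 was high in the hepatocyte gate of RD no tumour 1 (74.7 CPM) and WD tumour 2 (39.9 CPM) and at 2.01 to 15.6 CPM in the other 6 mice.

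High levels in 1 library alone were found for 3 members. Col4a4, a chain gene of type IV collagen, was at 50.3 CPM in RD tumour 1 and at 4.19 to 7.58 CPM in the other 7 mice. Col23a1, a transmembrane collagen gene, was at 72.7 CPM in RD tumour 1 and at 1.72 to 7.24 CPM elsewhere. Both were as high in RD tumour 1's hepatocyte-gated (52.7 and 74.0 CPM) as in its stellate-gated (59.4 and 81.6 CPM) and endothelial-gated nuclei (47.1 and 78.1 CPM). Against RD no tumour their whole-library log2 fold changes were 2.27 ± 0.80 and 3.79 ± 1.08, and -0.28 and -0.093 without RD tumour 1. DESeq2 called Col23a1 in this comparison and no other member, against 0.351% of all genes. WD tumour differed from RD tumour by -2.53 ± 0.80 and -2.82 ± 1.04, and 0.020 and 1.06 without RD tumour 1. Col1a1 also had a difference between the RD groups that rests on this library: 2.67 ± 0.89, and 0.70 without it. Col7a1, the anchoring fibril gene, was at 10.3 CPM in RD tumour 2 and at 0.279 to 1.02 CPM in the other 7 mice, with a log2 fold change of 3.13 ± 0.91 between the RD groups and 0.71 without RD tumour 2. From RD tumour, WD tumour differed by -3.22 ± 0.92, by -0.80 without RD tumour 2 and by -4.07 without RD tumour 1. With RD tumour 2 left out, RD tumour 1 stood alone in its group, assumed to vary like the others, and edgeR called many genes. In whole libraries 4 of 35 members (Col1a1, Col4a4, Col5a3 and Col23a1) were called between the RD groups, against 23% of all genes, and 7 of 35 against WD tumour, where 22.3% were. The stellate gate gave 5 and 6 of 27 members, against 10.7% and 12.2%, and the endothelial gate 5 and 4 of 27, against 19.9% and 21.1%. The members' shares lay above those of all genes in the stellate gate and below them in whole libraries and the endothelial gate. Col4a3, which starts beside Col4a4 on the opposite strand, was at 12.2 CPM in RD tumour 1 and at 7.14 to 8.47 CPM elsewhere, so the pair did not move by the same factor. The 71 bases between their annotated starts (82586849 for Col4a4 and 82586921 for Col4a3) are shown because both genes share them; they held none of the 3 motifs.
Col4a4 to Col4a3, chr1:82586850-82586920, GRCm38.p6, minus strand: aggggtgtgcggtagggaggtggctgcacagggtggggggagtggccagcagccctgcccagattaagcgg

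The other type IV genes are arranged likewise. Col4a1 and Col4a2 overlap by 22 bases at their starts on chromosome 8, and Col4a6 and Col4a5 lie 1308 bases apart on the X chromosome. Col4a1 and Col4a2 were high in the same mice in whole libraries: WD tumour 2 had 85.7 and 43.3 CPM, RD tumour 1 had 74.9 and 51.5 CPM, and the lowest mouse for both, RD no tumour 2, had 17.2 and 11.2 CPM. The macrophage gates of WD tumour 2 and RD tumour 1 held 34.8 and 34% of nuclei, against 7.60 to 26.6% elsewhere, and the part of that in the result was not tested.

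**Figure D5:**
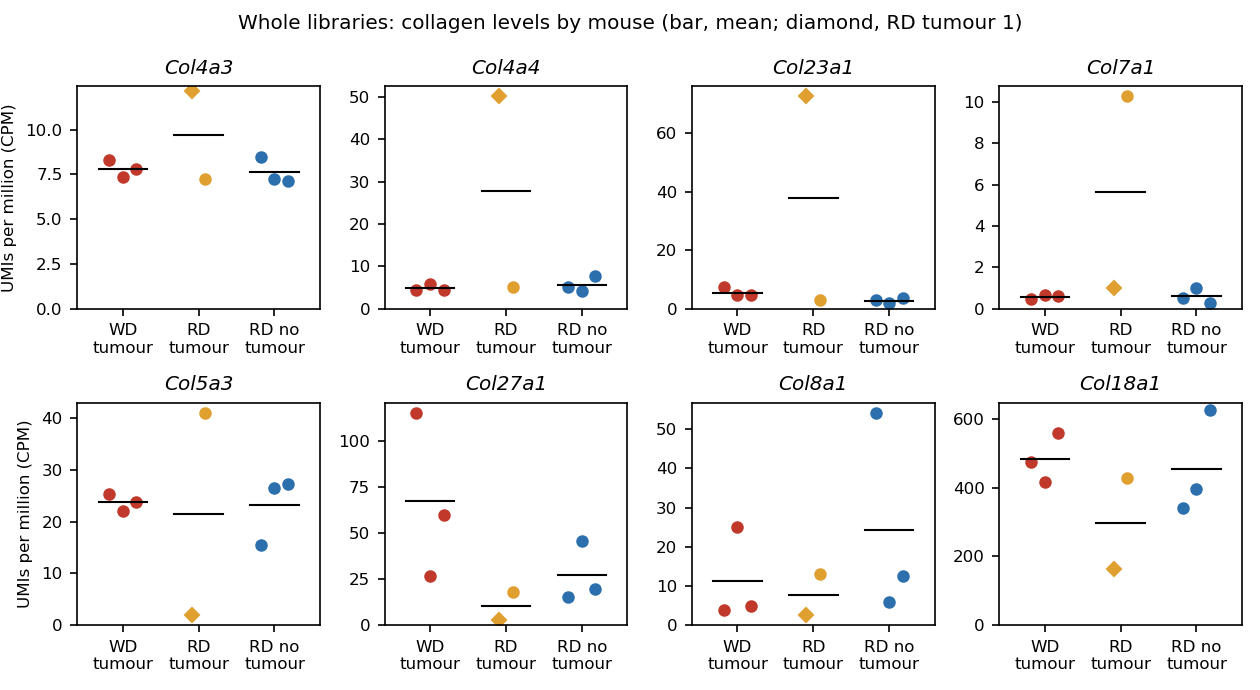
Each panel gives the CPM of 1 collagen gene (y axis) in the whole library of each mouse, by group (x axis), with a bar at the group mean and a diamond for RD tumour 1. Col4a4 and Col23a1 stand out in RD tumour 1 (50.3 and 72.7 CPM) and Col7a1 in RD tumour 2 (10.3 CPM), whereas Col4a3 spans 7.14 to 12.2 CPM.

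The remaining 11 members had under 100 UMIs in all 8 libraries together, from 3 for Col2a1, the cartilage collagen gene, to 92 for Col19a1. Only Col6a5 and Col28a1 of them passed the low-count filter in whole libraries, and Col28a1 differed by 0.26 ± 0.74 on the log2 scale between WD tumour and RD no tumour.

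Genes that process or bind collagen were looked at as lists of 26 and 10 genes. In stellate-gated nuclei, 6 of 20 tested processing genes and 5 of 8 receptor genes had an unadjusted p under 0.05 between WD tumour and RD tumour, all higher in WD tumour, against 9.45% of all genes. In the fit that left out RD tumour 1 it was 3 of 23 and 2 of 9, against 6.07%. They included Adamts14, which trims the ends of procollagen (log2 fold change 2.06 ± 0.44, or 1.66 without RD tumour 1), the collagen prolyl hydroxylase P3h2 (1.90 ± 0.51, or 1.36) and the collagen receptor Ddr2 (1.48 ± 0.43, or 1.27). Between RD tumour and RD no tumour, 5 of 20 and 2 of 8 had such a p, all lower in RD tumour, against 8.05%, and without RD tumour 1 it was 3 of 23 and 1 of 9, against 4.87%. With WD tumour and RD no tumour compared, 0 of 20 and 1 of 8 did, against 2.39%, the 1 being the collagen-binding integrin gene Itga11 (1.04 ± 0.44). None passed after adjustment.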

How the data were processed

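The authors deposited, for each mouse, a table of unnormalized UMI counts over genes and barcodes; per the file headers it comes from Cell Ranger 7.0.0. It was made from snap-frozen liver and Chromium single cell 3′ v3.1 libraries per the labels' protocols; build mm10 comes from the submitters' processing notes. The counting of intronic reads and the cell calling are not given in the sources used here. Barcodes with at least 300 genes were kept. A nucleus entered the gate with the most of 10 markers detected, at least 2 (3 for hepatocytes). Counts were summed per mouse and gate (at least 20 nuclei) and tested with edgeR 4.0.16 in R 4.3.3 (TMM, its default low-count filter, all 3 groups in 1 fit, Benjamini-Hochberg over all genes). The fit was tested on simulated counts. Alternatives were DESeq2 1.42.0, no low-count filter, RLE normalization, only the 2 groups compared, a replicate block, at least 500 genes, a gate at 3 markers, a strict gate (at most 1 marker of any other class), each mouse left out and, added later, a fibroblast gate without Scara5 and fibrillar sums without Col27a1. Members with at least 100 UMIs were described with values, and those with an unadjusted edgeR p under 0.05 with a fold change. Members and gene lists were chosen with earlier results of these data known. Positions are from GENCODE M21 (GRCm38).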

Additional observations from a re-analysis of the deposited data

Results flagged for a closer look

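Some members lay wholly apart in opposite directions in different gates under the same comparison, in gates with at least 30 UMIs of the gene. The values are log2 ratios of group mean CPM, and the difference between gates was not tested. The members were picked by this rule, and the share of all genes that meets it was not computed. Between RD tumour and RD no tumour, 14% of all genes lay wholly above and 9.22% wholly below in stellate-gated nuclei alone (mean of at least 1 CPM). In this comparison every RD tumour mouse was below every RD no tumour mouse in stellate-gated nuclei for Col5a1, Col6a1, Col6a2, Col6a3 and Col16a1. Every RD tumour mouse was above in the other gates named for them. Col5a1 stood at -1.18 in stellate-gated, 1.68 in macrophage-gated and 2.44 in hepatocyte-gated nuclei. Col6a3 stood at -0.79, 1.36 and 2.14, and Col6a1 at -1.29, 1.42 and 2.06, in the same order of gates. Col6a2 stood at -1.43 in stellate-gated and 2.21 in macrophage-gated nuclei, and Col16a1 at -1.40 in stellate-gated and 1.82 in hepatocyte-gated nuclei. Col13a1 stood at -1.29 in endothelial-gated and 2.97 in hepatocyte-gated nuclei. Between WD tumour and RD tumour, Col5a2 stood at 1.91 in stellate-gated, -0.66 in macrophage-gated and -1.23 in hepatocyte-gated nuclei. That both RD tumour mice share these directions follows from the rule. For Col6a3 the hepatocyte-gated nuclei held 4.40 and 4.79 CPM in RD tumour and 1.48, 0.907 and 0.734 CPM in RD no tumour. Markers of other cells differed in the same gates. In RD tumour and RD no tumour mice respectively, hepatocyte-gated nuclei held stellate markers at 137 to 144 and 33.2 to 61.3 CPM, endothelial markers at 184 to 457 and 64.5 to 126 CPM and macrophage markers at 218 to 785 and 71.8 to 208 CPM. Macrophage-gated nuclei held stellate markers at 129 to 412 and 163 to 177 CPM, which overlapped. In stellate-gated nuclei the stellate markers stood at 1702 to 4623 and 5631 to 7746 CPM. Their part in these patterns was not tested.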

How the results depend on the processing

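The count of members called, 0 in each of the 13 comparisons, changed under 3 kinds of alternative. With DESeq2 it was 1 in whole libraries (RD tumour against RD no tumour) and 3 in stellate-gated nuclei (WD tumour against RD tumour). With no low-count filter the fibroblast gate gave 2 (WD tumour against RD no tumour), 1 (between the RD groups) and 1 (between the tumour-bearing groups). Leaving out 1 mouse gave counts from 0 to 7. All counts above 0 came without RD tumour 2, which leaves RD tumour 1 alone in its group, assumed to vary like the others: 4 and 7 in whole libraries, 5 and 6 in stellate-gated and 5 and 4 in endothelial-gated nuclei, against RD no tumour and WD tumour. The cause was not tested. Without RD tumour 1 the count stayed 0, and the fold changes of Col23a1 and Col4a4 changed sign. Over the mice left out in turn, between the RD groups in whole libraries, Col23a1 ranged from -0.093 (without RD tumour 1) to 4.72 (without RD tumour 2) and Col4a4 from -0.28 to 3.12. For WD tumour against RD tumour they ranged from -3.75 to 1.06 and from -3.38 to 0.020, here with the highest value without RD tumour 1. In endothelial-gated nuclei Col23a1 ranged from -0.39 to 3.82 and Col4a4 from -0.67 to 3.06 between the RD groups, and Col4a4 from -3.57 to 0.17 for WD tumour against RD tumour. The labels do not say whether replicate numbers pair mice. Deviations of same-numbered mice from their group means correlated between -0.61 and 0.46. Deviations within so small a group constrain each other, so these values cannot decide it. With the replicate block 0 members were called in every comparison, the same count as in the main fit. Mean shares moved for 3 gates. At 3 markers the gates held 0.189% (fibroblast), 10.7% (endothelial) and 0.378% (cholangiocyte) of nuclei, and 0.534% and 0.400% of collagen UMIs in the fibroblast and cholangiocyte gates. The strict gate held 10.4% (endothelial) of nuclei and 8.58% of collagen UMIs, and the limit of 500 genes gave 16.6% of nuclei in the endothelial gate. Without Scara5 the fibroblast gate held 0.391% of nuclei and 0.798% of collagen UMIs. Without Col27a1 the fibrillar sum, as a mean over the 8 mice, was 85.7 CPM in place of 124 CPM. Stellate-gate shares and the other summed levels moved by less than the spread between mice.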
